A study of Rattus norvegicus with 9 samples.

Results

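Genes of homologous recombination and of the Fanconi anemia (FA) pathway were examined in adipose-derived mesenchymal stem cells (ASCs) from 3 fat depots of the rat. The 35 genes were chosen by symbol for their known part in these pathways, and 34 of them were found among the 35362 genes of the deposited table. Xrcc3 was not analysed here. All 34 passed the filter on low counts that left 14770 genes for testing, and the smallest count of any of them was 5, for Rad54b in SASCs sample 3.

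SASCs were grown from groin subcutaneous fat, PASCs from fat around the kidney, and EASCs from epididymal fat beside the testis. The fat came from male Sprague Dawley rats bought at 6 weeks of age and starved before the cells were isolated, and no experimental treatment is described. The cells that adhered to the dish were expanded in serum to passage 3 without sorting. Each group had 3 RNA samples, although 6 replicates per group are described. RNA was extracted from single culture wells, and the sources used here do not say whether a group's wells held cells of different rats, so p-values measure only the spread between these samples, which may be technical.

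Homologous recombination repairs a double-strand DNA break by copying the intact sister chromatid, and is therefore used mostly during and after DNA replication. Broken ends are trimmed to single strands, the BRCA proteins and the strand exchange factors help these strands pair with the intact copy, and the joined molecules are then separated by helicases and nucleases. The FA pathway unhooks DNA strands that are crosslinked to each other when replication forks meet them, with a core complex that ubiquitinates the FANCD2-FANCI pair, after which recombination completes the repair. Many of these genes are known to be transcribed mainly in cycling cells, so their levels were related here to the level of replication genes.

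The samples held between 17591916 and 30299032 counts, at which 3 counts of a gene correspond to 0.104 to 0.159 CPM, the counts scaled to a common library total, after TMM, edgeR's trimmed mean method. The share of ribosomal RNA genes was 10.4% to 15.5% for SASCs, 22.4% to 32.9% for PASCs, and 15.9% to 40.3% for EASCs. The 8 mesenchymal stem cell markers, among them Thy1, Nt5e, and Pdgfrb, summed to 4180 to 4300 CPM for SASCs, 3800 to 3970 for PASCs, and 4990 to 5060 for EASCs. Within that sum Itgb1 was at means of 1050, 1810, and 2950 CPM in SASCs, PASCs, and EASCs, while Pdgfra was at 1540, 278, and 235 and Vcam1 at 43.4, 11.2, and 27.7. Summed leukocyte markers were 16.9 to 20.9, 34.7 to 37.2, and 61.7 to 66.6 CPM in the same order, with 5 of 7 markers detected in SASCs and PASCs and the T cell marker Cd3e at 0 in all samples. Summed endothelial markers were 44.3 to 46, 11.7 to 14.6, and 30.5 to 33.1 CPM, with all 6 detected in each group. Not all followed the sum, as Tek was at means of 2.55, 8.3, and 8.08 CPM and Cdh5 at 9.2, 1.13, and 9.77. Mesothelial markers summed to 20 to 21.4, 98.3 to 106, and 132 to 143 CPM, with Krt18 at 0 in SASCs and Krt19 at 0 in PASCs among 8. The 6 smooth muscle and pericyte markers summed to 96.1 to 100, 1150 to 1190, and 2970 to 3000 CPM, of which Acta2 made up 55.7, 911, and 2200 CPM on average, while the pericyte marker Rgs5 was at 1.25, 0.0759, and 0.169 and the pericyte marker Cspg4 at 8.30, 66.6, and 50.2. The 5 adipocyte markers were at 87.1 to 95.9, 19.1 to 20.2, and 9.24 to 10.1 CPM. The 16 germ cell and meiosis genes summed to 4 to 4.98, 4.66 to 5.31, and 2.77 to 3.52 CPM, and Ddx4, Dazl, Spo11, Sycp1, and Msh4 were at 0 in every sample. The part of these cell type differences in the results that follow was not tested, and in bulk RNA fewer cells of a kind cannot be told apart from less RNA per cell.

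Most of the repair genes rose in both visceral groups over SASCs, whereas Rad50, Nbn, and Slx4 fell in both. DEGs were genes with a fold change above 2 and a Benjamini-Hochberg adjusted p-value under 0.05 in edgeR's quasi-likelihood test of all 9 samples, while "rose" and "fell" are used of a gene with an adjusted p under 0.05 at any fold change. In EASCs, 17 of the 34 genes were upregulated DEGs against 13.6% of all genes tested, and 0 were downregulated DEGs against 14.2%. In PASCs, 18 were upregulated DEGs against 12.0% of all genes, and 0 were downregulated DEGs against 14.9%. At any fold change, 25 genes rose and 3 fell in EASCs, where 35.5% of all genes rose and 34.3% fell, and 26 rose and 3 fell in PASCs, where 34.6% of all genes rose and 34.6% fell. DESeq2 also gave 0 downregulated DEGs in each comparison, and at an unadjusted p under 0.05 the genes that were lower numbered 3 in each.

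The median log2 fold change of the 34 genes was 0.93 in EASCs, within a range of -0.57 to 2.60, and 1.08 in PASCs, within -0.34 to 2.83. The medians of all genes were 0.01 and -0.01. The CPM of the 2 groups did not overlap for 26 genes in EASCs and SASCs and for 30 genes in PASCs and SASCs, against 72.1% and 71.6% of all genes. For a single gene without overlap, the two-sided exact permutation test of 3 against 3 samples gave p = 0.1, the smallest it can give. Scaling by total counts without TMM, which moved the median of all genes to -0.39 in EASCs and -0.33 in PASCs, left 11 upregulated DEGs in EASCs and 16 in PASCs. Both comparisons use the same SASCs samples and are therefore not independent of each other.

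**Figure D1:**
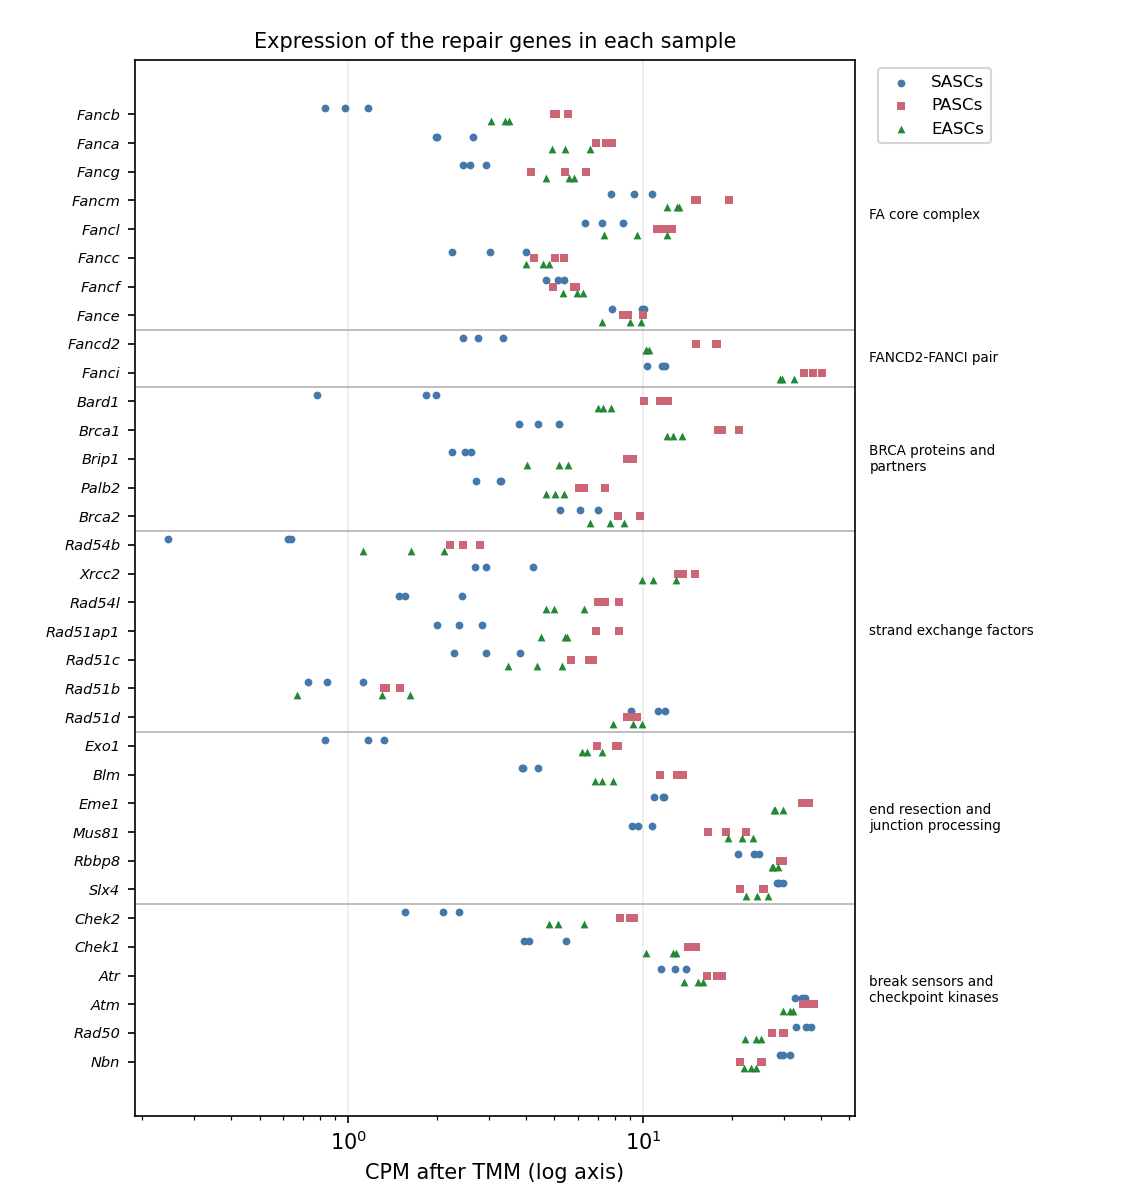
CPM after TMM of the 34 genes in each of the 9 samples on a log axis, grouped by role. Each point is 1 sample, and the separation of SASCs from the other groups is wide for Exo1, Bard1, and Fancd2 and absent for Fance and Rad51d.

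By the mean of both log2 fold changes against SASCs, the genes that differed most were Exo1, Bard1, and Fancd2. The promoters of Exo1, Bard1, and Brca1 are shown as those of strongly changed genes with a match to a searched motif upstream of the start. That of Atm is shown as one of a gene that holds a match as well and did not pass the test against SASCs in either group. The printed promoters are the 250 bases before the RefSeq gene start on GRCr8, a later build than that of the counts, on the strand of the gene, with motif matches in capitals. The E2F core was searched with the letters TTCGCGC and with the further forms TTGGCGC, then TTCCCGC, then TTGCCGC. The CCAAT box was searched with the letters CCAAT and the cell cycle homology region (CHR) with the letters TTTGAA. Both strands were searched, so that GCGGGAA (E2F core), GCGCCAA (E2F core), and ATTGG (inverted CCAAT box) are matches read from the other strand. The Exo1 promoter at chr13:90341768-90342017 (plus strand) holds 2 CCAAT boxes, the Bard1 promoter at chr9:80143756-80144005 (minus strand) 1 E2F core between 2 CHR matches, the Brca1 promoter at chr10:86977582-86977831 (minus strand) a CCAAT box and 2 E2F cores, and the Atm promoter at chr8:62828630-62828879 (minus strand) 1 E2F core.
Exo1: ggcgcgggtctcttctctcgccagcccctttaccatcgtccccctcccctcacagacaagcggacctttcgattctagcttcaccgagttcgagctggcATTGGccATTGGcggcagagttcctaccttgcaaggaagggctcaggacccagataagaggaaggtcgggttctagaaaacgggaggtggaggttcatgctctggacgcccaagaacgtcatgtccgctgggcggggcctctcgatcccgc
Bard1: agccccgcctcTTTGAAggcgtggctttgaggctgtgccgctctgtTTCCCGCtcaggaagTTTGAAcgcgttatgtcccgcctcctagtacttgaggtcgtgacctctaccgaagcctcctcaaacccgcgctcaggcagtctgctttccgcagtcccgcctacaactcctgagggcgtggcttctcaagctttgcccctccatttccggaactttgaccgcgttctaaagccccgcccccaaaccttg
Brca1: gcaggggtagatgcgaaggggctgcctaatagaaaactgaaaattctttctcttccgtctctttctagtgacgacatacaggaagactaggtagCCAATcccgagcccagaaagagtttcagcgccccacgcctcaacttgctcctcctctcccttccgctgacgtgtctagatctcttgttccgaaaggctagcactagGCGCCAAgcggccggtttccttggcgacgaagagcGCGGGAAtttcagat
Atm: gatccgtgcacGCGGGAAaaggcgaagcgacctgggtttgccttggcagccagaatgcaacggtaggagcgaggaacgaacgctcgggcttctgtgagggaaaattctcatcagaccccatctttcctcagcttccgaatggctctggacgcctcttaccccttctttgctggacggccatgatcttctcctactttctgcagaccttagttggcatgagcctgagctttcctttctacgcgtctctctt

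Of the 34 genes, 29 had a promoter in the reference table, searched over 300 bases from 250 before to 50 after the start. An E2F core was present in 11 of 29 (37.9%), compared with 9.52% of all 33469 rat promoters and 28 of 38 promoters (73.7%) of the DNA replication genes. CCAAT boxes were present in 11 of 29 (37.9%) against 37.5% of all promoters, and CHR matches in 6 of 29 (20.7%) against 18.3%. An E2F core was found in 5 of 14 promoters of upregulated DEGs in PASCs and in 6 of 15 promoters of the other genes, and the same numbers held for EASCs. Fancd2 had its only match, an E2F core, 10 bases after the start, and 7 of the 29 promoters, among them those of Fance and Fancb, had none of the 3 motifs. Matches of different motifs could overlap, as they did in Fancf, and they describe letters in a window and not binding.

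**Figure D2:**
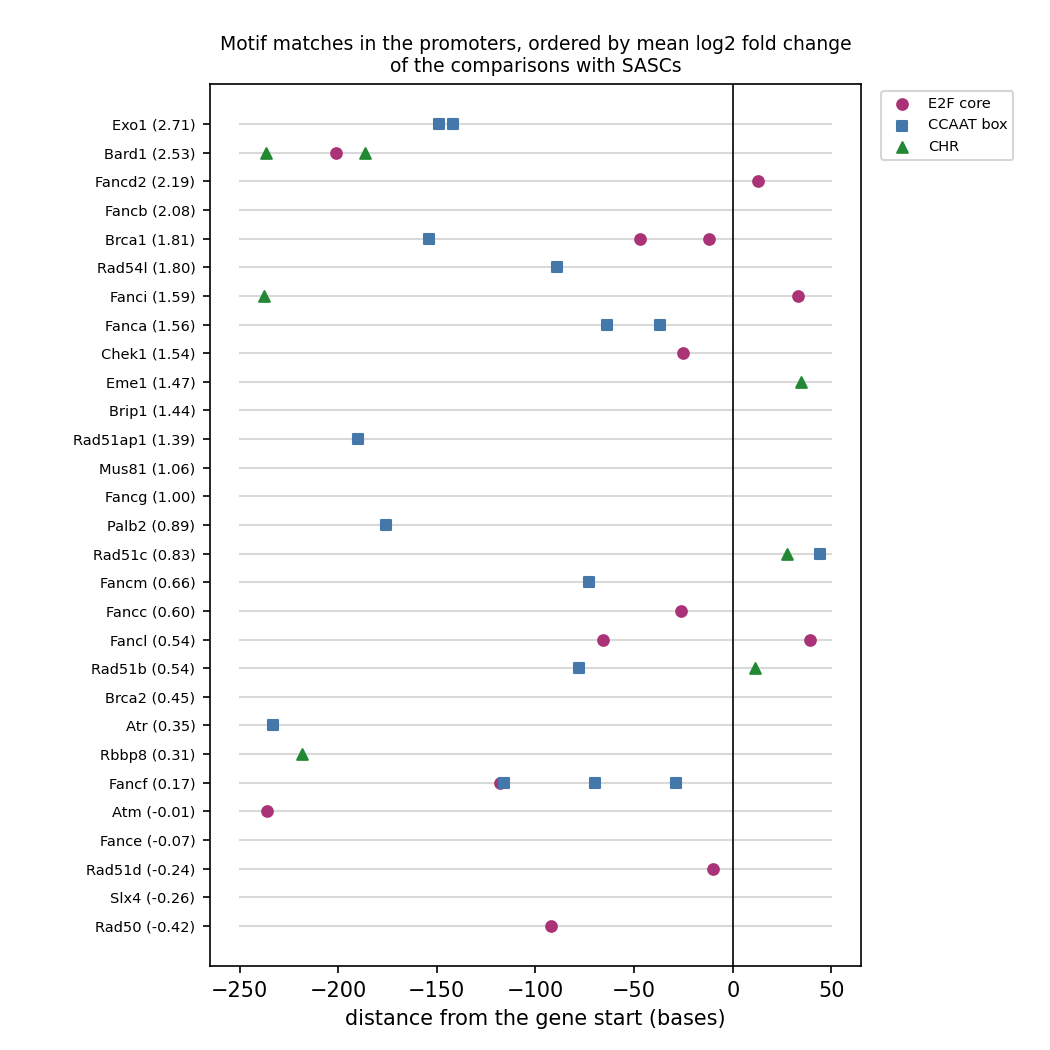
Position of motif matches in 29 promoters, in bases from the gene start, with genes ordered by the mean of their log2 fold changes in PASCs and EASCs against SASCs (in parentheses). E2F cores lie in the promoters of Bard1 (2.53) and Brca1 (1.81) and also in those of Atm (-0.01) and Rad50 (-0.42).

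The replication difference was measured by the mean log2 CPM of 44 DNA replication genes, none of which is among the 34. These genes encode the MCM helicase, origin and loading factors, polymerases, and clamp proteins. This replication index was 2.73 ± 0.0284 in SASCs, 4.32 ± 0.0408 in PASCs, and 4 ± 0.0215 in EASCs (SD, n = 3). The groups did not overlap (two-sided exact permutation test, p = 0.1 for each pair, the smallest possible). The index was thus 1.27 (2.4-fold) higher in EASCs and 1.58 (3-fold) higher in PASCs than in SASCs on the log2 scale, and 0.32 lower in EASCs than in PASCs. Among the 44 genes, 31 were upregulated DEGs in EASCs and 36 in PASCs, against 13.6% and 12.0% of all genes, led in PASCs by Cdc45, Cdc6, and Mcm5 with log2 fold changes of 3.12, 3.09, and 3.08. Origin genes Orc3 and Orc4 had negative log2 fold changes of -0.62 and -0.80 in PASCs, so the index is a mean over genes that did not all rise.

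**Figure D3:**
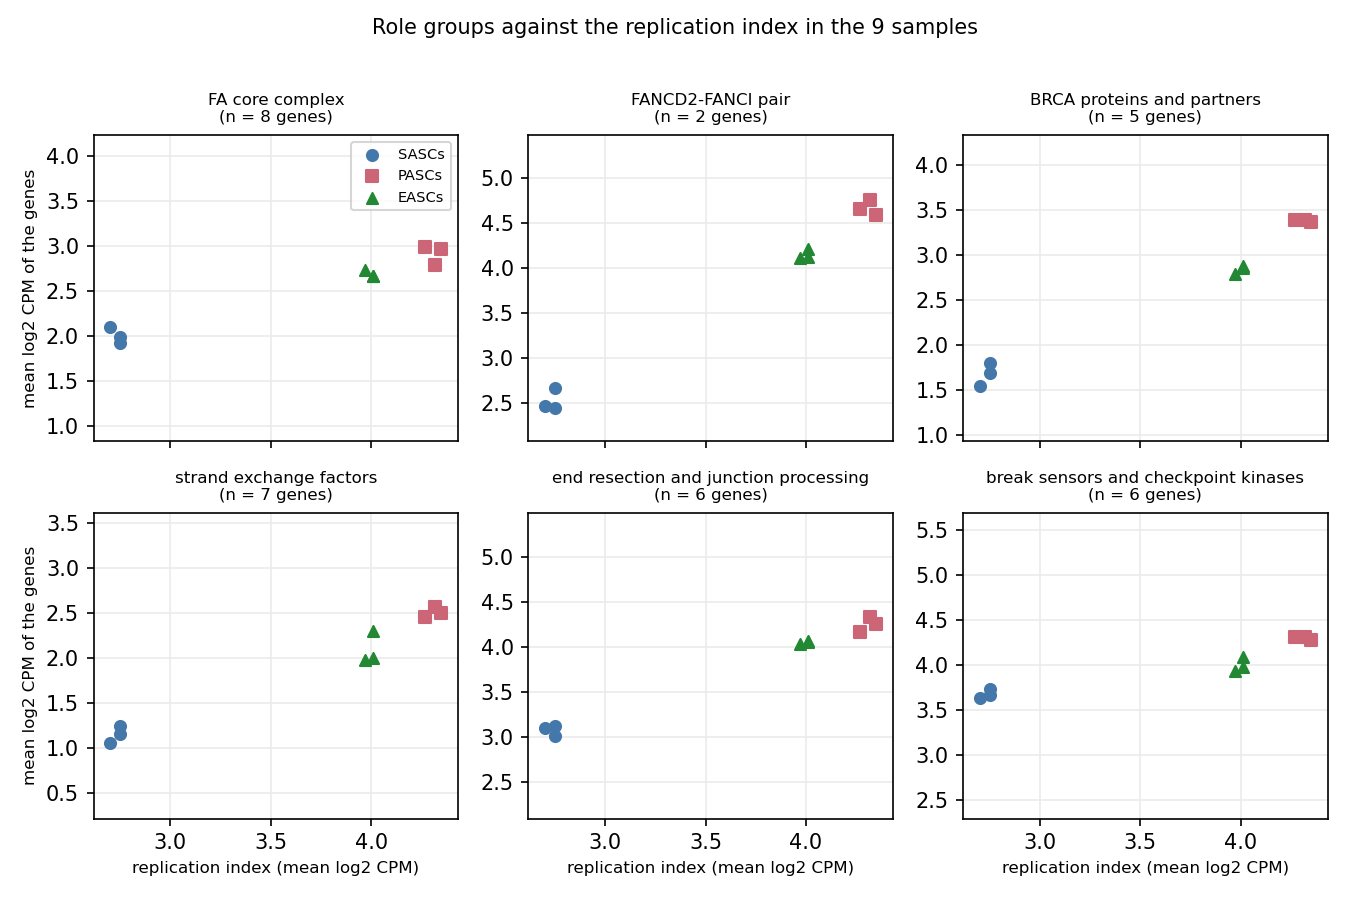
Mean log2 CPM of each role group (vertical) against the replication index (horizontal) in the 9 samples, 1 point per sample, with the same vertical span in each panel. The SASCs lie near an index of 2.73 and the PASCs near 4.32, and because each group forms its own cluster no correlation is given.

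The 8 genes of the FA core complex, which ubiquitinates FANCD2 and FANCI, held 3 upregulated DEGs in EASCs (Fanca, Fancb, Fancg) and 2 in PASCs (Fanca, Fancb). Of all genes, 13.6% and 12.0% were upregulated DEGs. At any fold change 6 of the 8 rose in each comparison, against 35.5% and 34.6% of all genes. Fancb, whose product forms a catalytic module with FANCL, was measured at 0.834, 0.976, and 1.17 CPM in SASCs, at 4.97, 5.57, and 5.08 in PASCs, and at 3.52, 3.40, and 3.04 in EASCs. All 3 groups were separate, with every PASCs sample above every EASCs sample. The log2 fold change of Fancb was 1.76 ± 0.228 (SE) in EASCs and 2.40 ± 0.219 in PASCs, at adjusted p = 1.4e-07 and 1.87e-10. Fance, which links the core complex to FANCD2, was at 9.91, 10.1, and 7.86 CPM in SASCs, at 9.95, 8.56, and 8.90 in PASCs, and at 9, 7.26, and 9.84 in EASCs. Its groups overlapped, and its log2 fold changes of -0.10 ± 0.133 in EASCs and -0.03 ± 0.133 in PASCs, at adjusted p = 0.498 and 0.856, were within their errors. The adapter Fancf was likewise not past the test, with log2 fold changes of 0.21 and 0.13.

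Fancg, another scaffold of the core complex, lay at the fold threshold. It was at 2.92, 2.59, and 2.44 CPM in SASCs, at 6.39, 4.15, and 5.45 in PASCs, and at 5.61, 4.70, and 5.82 in EASCs, so that both visceral groups were above SASCs and overlapped each other. Its log2 fold change was 1.01 ± 0.188 in EASCs and 1.00 ± 0.188 in PASCs, at adjusted p = 3.29e-05 and 3.9e-05, so that PASCs were just under the fold threshold, and EASCs and PASCs differed by 0.01 ± 0.175 (adjusted p = 0.969). The call in EASCs was lost with DESeq2 (0.99), with at least 10 counts required in every sample (0.99), and without SASCs sample 2 (0.99), SASCs sample 3 (0.96), EASCs sample 1 (0.98), or EASCs sample 3 (0.95), and in PASCs the gene became a DEG without SASCs sample 1 (1.08), PASCs sample 2 (1.16), or EASCs sample 2 (1.00). Fanca, another subunit, rose by 1.36 in EASCs and 1.76 in PASCs on the log2 scale, and its gene overlaps Zfp276 on the other strand by 220 bases. Fancc, Fancl, which is the ubiquitin ligase, and Fancm, the anchor on DNA, rose by less than 2-fold, with values of 0.39 to 0.54 in EASCs and 0.66 to 0.84 in PASCs on the log2 scale. The Fancl gene overlaps Vrk2 on the other strand by 1046 bases, and Vrk2 held 2255 counts against 2071 for Fancl.

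Fancd2 and Fanci, the clamp that the core complex modifies, were upregulated DEGs in both comparisons. Fancd2 (gene at chr4:145489869-145551479 on rn6) was at 3.34, 2.76, and 2.44 CPM in SASCs, at 15.1, 17.7, and 17.8 in PASCs, and at 10.5, 10.2, and 10.2 in EASCs. The 3 groups were apart, and the EASCs samples lay close together between the others. The fold change of Fancd2 was 3.56 in EASCs (log2 1.83 ± 0.138, adjusted p = 3.56e-12) and 5.85 in PASCs (log2 2.55 ± 0.133, adjusted p = 1.3e-15). Fanci was at 11.6, 10.3, and 11.9 CPM in SASCs, at 37.7, 40.5, and 35.0 in PASCs, and at 32.4, 29.5, and 29.0 in EASCs, again in 3 separate groups. Its fold change was 2.70 in EASCs (log2 1.43 ± 0.0888, adjusted p = 5.04e-14) and 3.36 in PASCs (log2 1.75 ± 0.0879, adjusted p = 4.93e-16). The Fanci gene overlaps Polg, which encodes the mitochondrial DNA polymerase, by 881 bases on the other strand, and whether counting used strand is not given in the sources used here.

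Among the BRCA proteins and their partners, 3 of 5 genes were upregulated DEGs in EASCs and 4 of 5 in PASCs, against 13.6% and 12.0% of all genes. Bard1, the obligate partner of BRCA1 in its ubiquitin ligase, was at 1.98, 1.83, and 0.781 CPM in SASCs, at 11.4, 12.1, and 10.1 in PASCs, and at 7.79, 7.30, and 7.02 in EASCs. SASCs sample 3 was the lowest, and all 3 groups were separate. The fold change of Bard1 was 4.66 in EASCs (log2 2.22 ± 0.198, adjusted p = 1.18e-10) and 7.11 in PASCs (log2 2.83 ± 0.192, adjusted p = 3.69e-13). Brca1 rose by 1.52 ± 0.127 in EASCs and 2.11 ± 0.123 in PASCs, and Brip1, the helicase that binds it, by 1.01 ± 0.172 and 1.87 ± 0.163 on the log2 scale. The call of Brip1 in EASCs was lost with DESeq2 (0.99), with at least 10 counts required in every sample (0.99), and without SASCs sample 2 (0.95), EASCs sample 1 (0.91), or EASCs sample 2 (0.97). Brca2, which acts before strand exchange, was at 7.02, 5.22, and 6.10 CPM in SASCs, at 9.75, 9.72, and 8.21 in PASCs, and at 6.61, 7.74, and 8.59 in EASCs. Its EASCs samples overlapped SASCs, with a log2 difference of 0.32 ± 0.143 (adjusted p = 0.0531), and it rose by 0.59 ± 0.141 in PASCs (adjusted p = 0.000558).

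Palb2, the bridge between BRCA1 and BRCA2, was an upregulated DEG in PASCs and not in EASCs. It was at 3.30, 2.72, and 3.27 CPM in SASCs, at 6.04, 6.32, and 7.41 in PASCs, and at 4.69, 5.39, and 5.01 in EASCs, without overlap between groups. Its log2 fold change was 1.08 ± 0.164 in PASCs (adjusted p = 1.76e-06) and 0.70 ± 0.168 in EASCs (adjusted p = 0.000639). The direct difference between EASCs and PASCs, -0.38 ± 0.156, did not pass the test (adjusted p = 0.0645). Without SASCs sample 2 or PASCs sample 3 the value in PASCs was 1.00 and the call was lost.

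The strand exchange factors, which help a trimmed end pair with the intact copy, divided by gene. Of 7 genes, 4 were upregulated DEGs in EASCs (Xrcc2, Rad51ap1, Rad54l, Rad54b) and 5 in PASCs (these and Rad51c), against 13.6% and 12.0% of all genes. Xrcc2 was at 4.24, 2.93, and 2.68 CPM in SASCs, at 13.1, 15, and 13.7 in PASCs, and at 10.8, 12.9, and 9.89 in EASCs. The lowest PASCs sample was just above the highest EASCs sample. Its fold change was 3.35 in EASCs (log2 1.75 ± 0.154, adjusted p = 8.76e-11) and 4.17 in PASCs (log2 2.06 ± 0.151, adjusted p = 2.04e-12), and it lies within the span given for Kmt2c on the same strand. Rad54b, a motor protein that remodels recombining DNA, had the lowest counts of the 34 in SASCs, at 0.626, 0.637, and 0.244 CPM in SASCs, at 2.45, 2.80, and 2.22 in PASCs, and at 1.63, 2.11, and 1.12 in EASCs. It lies within the span given for Ube2w on the same strand, which held 5307 counts against 335 for Rad54b. Its log2 fold changes had wide errors, 1.65 ± 0.361 in EASCs and 2.27 ± 0.346 in PASCs, at adjusted p = 0.000234 and 1.88e-06. Its relative Rad54l rose by 1.55 and 2.05 and Rad51ap1, which stimulates strand exchange, by 1.08 and 1.69, the call in EASCs being lost without SASCs sample 3 (0.97).

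Rad51d, whose protein is the direct partner of XRCC2, did not pass the test in either comparison. Rad51d was at 11.9, 9.08, and 11.2 CPM in SASCs, at 9.10, 8.79, and 9.53 in PASCs, and at 7.91, 9.24, and 9.89 in EASCs. The groups overlapped, and the log2 fold changes were -0.25 ± 0.124 in EASCs and -0.24 ± 0.124 in PASCs, at adjusted p = 0.0717 and 0.0946. Rad51c, a further strand exchange factor, was at 2.92, 2.29, and 3.81 CPM in SASCs, at 6.54, 6.77, and 5.67 in PASCs, and at 3.47, 5.31, and 4.38 in EASCs. Only PASCs stood apart from both other groups, with a log2 fold change of 1.09 ± 0.192 (adjusted p = 1.51e-05) against 0.56 ± 0.198 in EASCs (adjusted p = 0.0148), and the difference of EASCs from PASCs was -0.53 ± 0.183 (adjusted p = 0.0283). The call of Rad51c in PASCs was lost without SASCs sample 2 (0.93). Rad51b, with 250 counts over the 9 samples the least counted gene of the 34, differed by amounts that did not pass the test in either comparison, and its errors of 0.366 and 0.361 were the widest of the 34 on the log2 scale.

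Genes for trimming DNA ends and separating joined molecules held the gene with the highest increase in EASCs. Exo1, the nuclease that extends single-stranded ends (gene at chr13:93936989-93962749 on rn6), was at 0.834, 1.32, and 1.17 CPM in SASCs, at 8.07, 8.19, and 6.99 in PASCs, and at 7.24, 6.44, and 6.22 in EASCs. Both visceral groups were far above SASCs and overlapped each other. The fold change of Exo1 was 6.06 in EASCs (log2 2.60 ± 0.195, adjusted p = 3.15e-12) and 7.10 in PASCs (log2 2.83 ± 0.192, adjusted p = 4.01e-13). Rbbp8, which encodes the CtIP protein that begins the trimming, rose by 0.27 ± 0.0789 in EASCs and 0.35 ± 0.0786 in PASCs, and its direction in EASCs turned to -0.13 without TMM.

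Mus81 and Eme1 encode the subunits of a nuclease that cuts branched DNA, and both rose in each visceral group. Mus81 was at 9.14, 10.7, and 9.57 CPM in SASCs, at 19.1, 22.3, and 16.6 in PASCs, and at 19.4, 21.6, and 23.5 in EASCs. Its log2 fold change was 1.14 ± 0.111 in EASCs and 0.99 ± 0.112 in PASCs, at adjusted p = 7.73e-10 and 1.15e-08, under the fold threshold in PASCs, and the difference between EASCs and PASCs of 0.15 ± 0.105 did not pass the test (adjusted p = 0.325). Mus81 became a DEG in PASCs without SASCs sample 2 (1.06), PASCs sample 1 (1.01), or PASCs sample 3 (1.08). Eme1 rose by 1.31 ± 0.0827 in EASCs and 1.62 ± 0.0818 in PASCs, although its gene shares 224 bases on the other strand with Lrrc59, which held 98818 counts over the 9 samples against 5393 for Eme1. Blm, the Bloom syndrome helicase, was at 3.89, 3.91, and 4.39 CPM in SASCs, at 11.4, 13.7, and 13 in PASCs, and at 7.91, 7.26, and 6.89 in EASCs. EASCs lay between the other groups without overlap. The increase of Blm was 1.65 ± 0.133 in PASCs (adjusted p = 1.42e-11) and 0.86 ± 0.138 in EASCs (adjusted p = 4.17e-06), and here the difference between EASCs and PASCs passed the test, at -0.79 ± 0.124 (adjusted p = 1.22e-05).

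Slx4, the scaffold that holds several of these nucleases, changed little and in the other direction. It was at 28.4, 28.8, and 29.7 CPM in SASCs, at 25.4, 25.6, and 21.3 in PASCs, and at 22.4, 26.5, and 24.4 in EASCs. The SASCs samples were above all others, and Slx4 fell by 0.25 in EASCs (SE 0.0848, adjusted p = 0.0125) and by 0.26 in PASCs (SE 0.0849, adjusted p = 0.00859) on the log2 scale.

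The break sensors and checkpoint kinases held genes that rose and genes that fell. The kinases Chek1 and Chek2, which act downstream and halt the cell cycle, were upregulated DEGs in both comparisons, whereas Nbn, Rad50, Atm, and Atr were not DEGs in either. Chek2 was at 2.09, 2.38, and 1.56 CPM in SASCs, at 9.33, 8.34, and 9 in PASCs, and at 6.28, 5.15, and 4.79 in EASCs. The groups did not overlap, and its log2 fold change was 1.42 ± 0.182 in EASCs and 2.13 ± 0.175 in PASCs, at adjusted p = 1.13e-07 and 2.06e-11. Chek1 rose by 1.40 ± 0.136 and 1.69 ± 0.134.

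Rad50 and Nbn encode parts of the complex that recognises broken ends. Rad50 was at 35.7, 33.0, and 37.2 CPM in SASCs, at 30.0, 29.7, and 27.4 in PASCs, and at 24.1, 22.2, and 25 in EASCs. Each group was separate and SASCs were the highest, and Rad50 fell by 0.57 in EASCs (SE 0.0776, adjusted p = 2.9e-07) and by 0.28 in PASCs (SE 0.0764, adjusted p = 0.00211) on the log2 scale. Nbn was at 31.5, 29.8, and 29.2 CPM in SASCs, at 21.3, 25, and 25.2 in PASCs, and at 24.1, 23.2, and 21.9 in EASCs. It fell by 0.39 in EASCs (SE 0.0822, adjusted p = 0.000154) and by 0.34 in PASCs (SE 0.0821, adjusted p = 0.000606), with SASCs again above all other samples, and it too lies within the span of Ube2w on the same strand.

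Atm, the kinase activated by that complex, was at 32.7, 34.5, and 35.3 CPM in SASCs, at 34.9, 38.1, and 36.8 in PASCs, and at 31.4, 32.3, and 29.9 in EASCs. Its log2 fold changes had opposite signs, -0.13 ± 0.0710 in EASCs and 0.10 ± 0.0703 in PASCs, at adjusted p = 0.107 and 0.208, and neither passed the test. The value in PASCs was -0.23 without TMM, so the opposite signs depended on the scaling. Atr, the kinase for single-stranded DNA, rose by 0.24 ± 0.102 in EASCs (adjusted p = 0.0407), a value that was -0.16 without TMM, and by 0.46 ± 0.101 in PASCs (adjusted p = 0.000229).

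**Figure D4:**
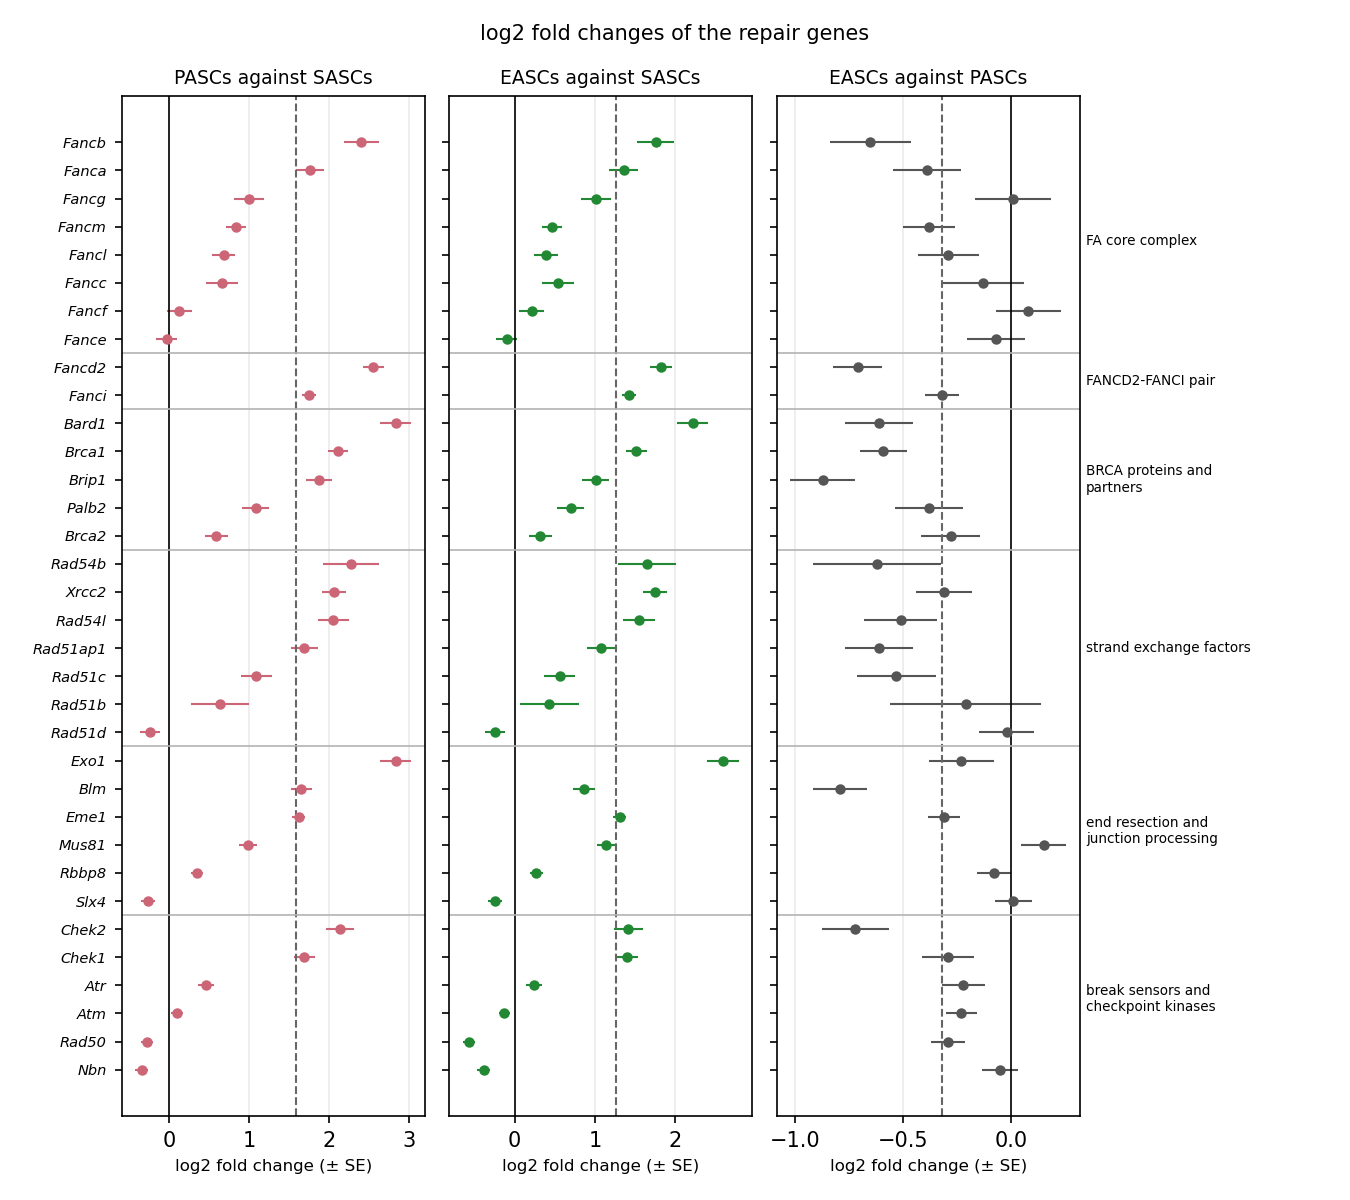
log2 fold changes of the 34 genes with their standard errors in the 3 comparisons, grouped by role. The dashed line is the change of the replication index (1.58, 1.27, and -0.32), and the solid line is 0. Exo1 and Bard1 lie right of the dashed line in both comparisons with SASCs, and Nbn and Rad50 lie left of 0.

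In the direct comparison of the visceral groups, the repair genes were lower in EASCs or did not pass the test. Of 34 genes, 0 were DEGs in edgeR or DESeq2. Among all genes 2.20% were DEGs lower in EASCs, so 0 of 34 was near the share of all genes in that direction. The share of DEGs higher in EASCs is not given here. At any fold change, 15 genes fell in EASCs (22 at an unadjusted p under 0.05), against 14.5% of all genes, and 0 rose (0 at an unadjusted p under 0.05), against 16.1%. The median log2 difference was -0.30, within -0.87 to 0.15, beside -0.01 for all genes. The CPM of EASCs and PASCs did not overlap for 22 of the 34 genes, against 41.2% of all genes. The decreases with the largest size were those of Brip1 (-0.87 ± 0.150, adjusted p = 4.55e-05), Blm, Chek2 (-0.72 ± 0.154, adjusted p = 0.000638), and Fancd2 (-0.71 ± 0.114, adjusted p = 1.53e-05). The others that fell were Fancb, Bard1, Rad51ap1, Brca1, Rad51c, Rad54l, Fancm, Fanci, Eme1, Rad50, and Atm, the last of them by 0.23 on the log2 scale. Without TMM, 9 genes fell.

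Each gene was then tested against the replication index, with the index of each sample as an offset in the same fit and its own error left out. The median of all genes did not move with the index, so 83.7% of all genes were lower than the index in EASCs against SASCs and 88.8% in PASCs against SASCs, while 7.16% and 4.37% were higher. Of the 34 repair genes, 17 were lower than the index, 5 were higher, and 12 did not pass the test in EASCs, with a median of -0.33 relative to it on the log2 scale. In PASCs, 18 were lower, 8 were higher, and 8 did not pass the test, with a median of -0.50.

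The genes that rose by more than the index in EASCs were Exo1 (1.34 ± 0.198 above it, adjusted p = 8.03e-07), Bard1 (0.96 ± 0.2, adjusted p = 8.99e-05), Fancd2 (0.57 ± 0.142, adjusted p = 0.00062), Fancb (0.49 ± 0.232, adjusted p = 0.0476), and Xrcc2 (0.48 ± 0.155, adjusted p = 0.00538). In PASCs they were Exo1 (1.25 ± 0.196, adjusted p = 2e-06), Bard1 (1.25 ± 0.195, adjusted p = 1.68e-06), Fancd2 (0.97 ± 0.138, adjusted p = 4.21e-07), Fancb (0.82 ± 0.224), Chek2 (0.55 ± 0.175), Brca1 (0.53 ± 0.129), Xrcc2 (0.48 ± 0.153), and Rad54l (0.47 ± 0.201). In PASCs each of the 6 role groups held at least 1 of these genes.

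Several genes moved by nearly the amount of the index. Eme1 differed from it by 0.05 ± 0.0839 in EASCs and 0.04 ± 0.0831 in PASCs, at adjusted p = 0.595 and 0.674. Chek1 differed by 0.14 ± 0.135 and 0.10 ± 0.134, Fanca by 0.10 ± 0.187 and 0.17 ± 0.183, and Fanci by 0.17 ± 0.0901 and 0.16 ± 0.0892, none of which passed the test. Those furthest below the index in PASCs were Nbn (-1.93 ± 0.0874), Rad50 (-1.87 ± 0.0813), Slx4 (-1.85 ± 0.0865), Rad51d (-1.82 ± 0.129), and Fance (-1.61 ± 0.134), which fell or did not pass the test in their levels. Fancc, Fancl, Fancm, Brca2, Palb2, Rad51c, Rbbp8, and Atr were between these extremes, and all 8 were below the index in both comparisons.

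Between EASCs and PASCs, 5 genes were lower than the index change of -0.32 and 6 were higher, against 4.37% and 53.9% of all genes. Those lower were Brip1 (-0.55 ± 0.149), Blm (-0.47 ± 0.126), Fancd2 (-0.40 ± 0.116), Chek2 (-0.40 ± 0.152), and Brca1 (-0.27 ± 0.113). Those higher were Mus81 (0.47 ± 0.106), Fancf, Slx4, Rad51d, Nbn, and Rbbp8, and 23 genes did not pass the test. Without PASCs sample 3, EASCs sample 2, or EASCs sample 3, 3 genes were lower. The counts depended on the choice of index. With the mean of 25 mitosis genes in its place, which rose more than the replication genes, 0 of the 34 genes were above the index in either comparison with SASCs and 32 were below it in each, and between EASCs and PASCs 0 were lower and 20 higher. With Mcm2 to Mcm7 alone 2 were above the index in EASCs and 3 in PASCs against SASCs, and with the median over the replication list in place of the mean 10 were above it in EASCs. Shares of all genes against these other indices are not given here, so these counts cannot be set beside them.

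**Figure D5:**
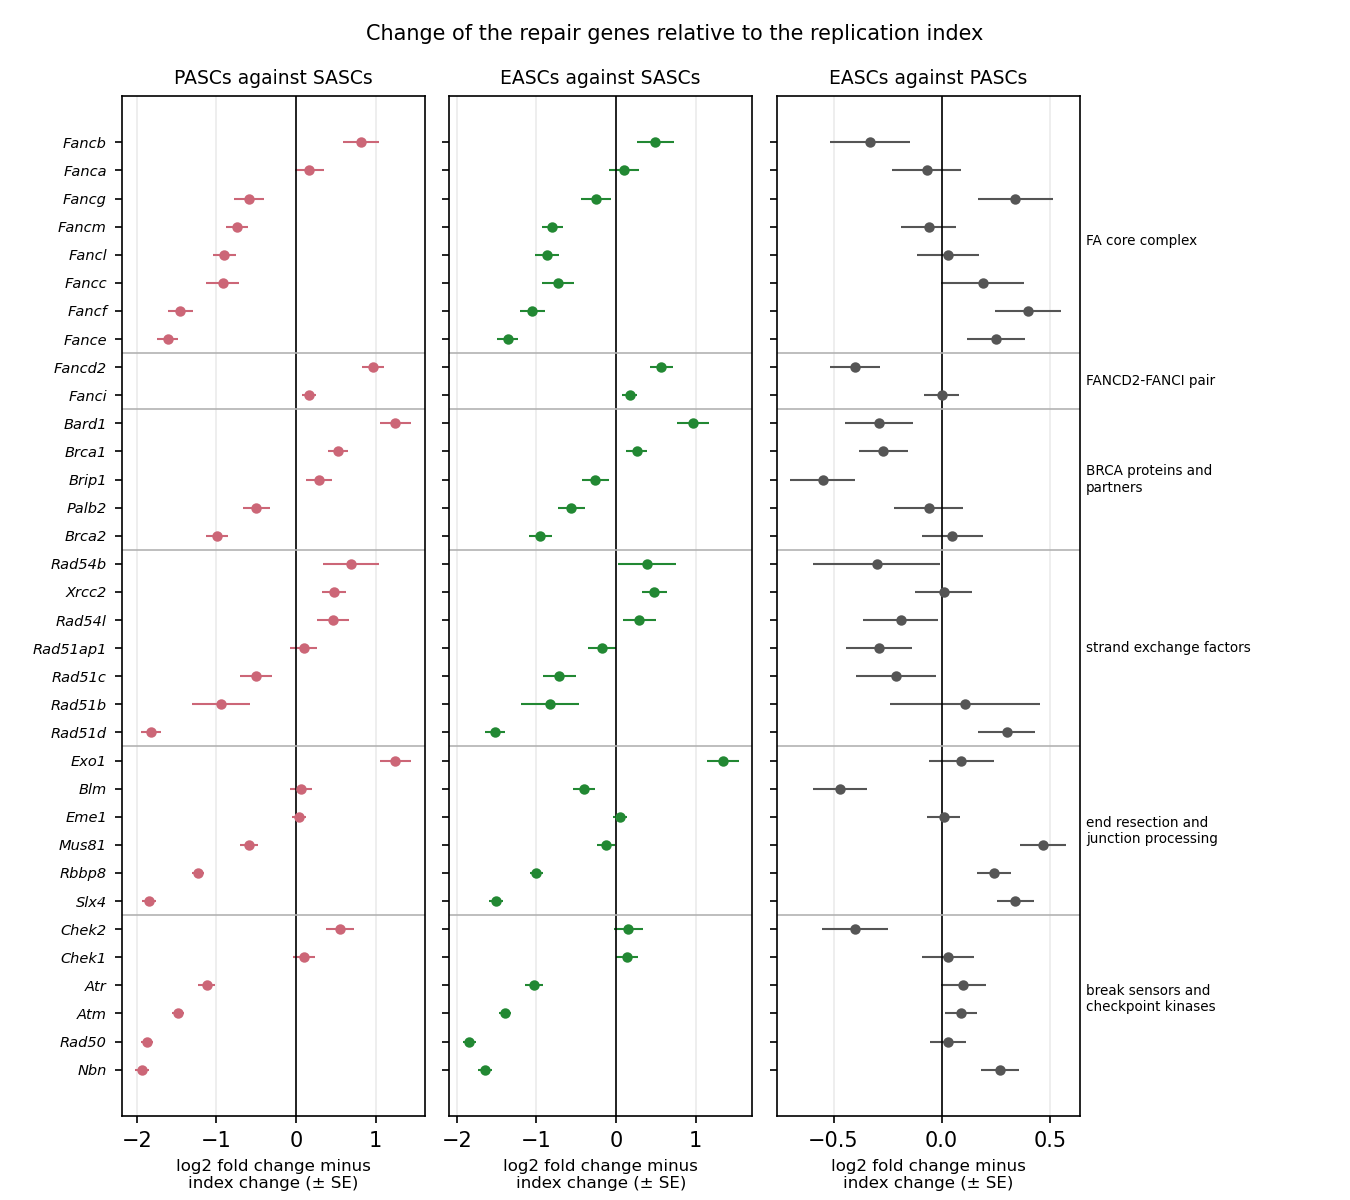
log2 fold changes of the 34 genes minus the change of the replication index, with standard errors, in the 3 comparisons. Exo1, Bard1, Fancd2, and Fancb lie above 0 in both comparisons with SASCs, and genes that fell or did not pass the test against SASCs, such as Fance, Rad51d, Slx4, Nbn, and Rad50, lie more than 1 below it in both.

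Levels were compared between genes only per kilobase of the gene length in the table, whose definition (merged exons or 1 transcript) is not given in the sources used here, so the order of genes depends on it. In SASCs the highest of the 34 was Nbn at 11 CPM per kilobase, followed by Rad50 at 7.95 and Eme1 at 5.12. In PASCs and EASCs the highest was Eme1, at 15.8 and 12.7, ahead of Mus81 at 8.96 and 9.97 and Nbn at 8.71 and 8.41. Exo1 moved from 0.219 CPM per kilobase in SASCs to 1.53 in PASCs and 1.31 in EASCs, and Rad54b was lowest in each group, at 0.0527, 0.262, and 0.170.

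Other genes of the same pathways were taken from a further list of 39, of which 34 were in the table and were tested. In EASCs 11 were upregulated DEGs and 0 downregulated, against 13.6% and 14.2% of all genes, and in PASCs 12 and 0, against 12.0% and 14.9%. At any fold change 19 rose and 11 fell in EASCs, against 35.5% and 34.3% of all genes. In PASCs 19 rose and 9 fell, against 34.6% of all genes in each direction. Among those that fell in EASCs, Rad52, Ercc4, and Fan1 had log2 fold changes of -0.89, -0.82, and -0.70. The largest changes in PASCs were those of Ube2t, the conjugating enzyme of the FA core, with means of 0.643 ± 0.262, 7.26 ± 1.16, and 5.26 ± 0.672 CPM in SASCs, PASCs, and EASCs and a log2 fold change of 3.44, of Rmi2, a partner of BLM, with 3.16, and of Fignl1, an ATPase of homologous recombination, with 3.16. The median of the list was 0.45 in EASCs and 0.35 in PASCs. For checkpoint signaling, 5 of 20 genes were upregulated DEGs in EASCs and 7 in PASCs, against the same shares of all genes, with 0 downregulated in each. At any fold change 12 rose and 2 fell in EASCs, against 35.5% and 34.3% of all genes. In PASCs 11 rose and 1 fell, against 34.6% of all genes in each direction. The upregulated DEGs were led in PASCs by Clspn, the adapter that activates CHEK1, at 2.66, Cdc25b at 2.28, and Timeless at 2.16.

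Non-homologous end joining seals breaks without a template and works throughout the cell cycle. Of its 9 genes tested, 0 were upregulated DEGs in either comparison, against 13.6% and 12.0% of all genes (1 higher in EASCs and 0 in PASCs at an unadjusted p under 0.05), and 2 were downregulated in each, against the shares of 14.2% and 14.9% of all genes. At any fold change 6 fell in EASCs and 4 in PASCs, against 34.3% and 34.6% of all genes, and the medians of the list were -0.55 and -0.39. Polm, a gap-filling polymerase, was at 33.5 ± 0.294 CPM in SASCs, 10.0 ± 0.454 in PASCs, and 8.92 ± 1.20 in EASCs (SD, n = 3), with log2 fold changes of -1.74 in PASCs and -1.91 in EASCs. Lig4, the ligase of this pathway, was at 39.6 ± 1.03, 15 ± 1, and 15.9 ± 2.78 CPM, with log2 fold changes of -1.40 and -1.31. The kinase Prkdc fell by 0.58 in PASCs and by 0.78 in EASCs on the log2 scale.

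A list of the E2F and Rb family, which controls transcription of replication genes, and of cell cycle regulators outside that family (Ccne1, Ccne2, Cdk2, Lin9, Lin54, Mybl2, and Foxm1) held 9 upregulated DEGs among 19 in EASCs and 11 in PASCs, against 13.6% and 12.0% of all genes, with Mybl2, E2f2, and E2f7 at log2 fold changes of 3.53, 2.89, and 2.87 in PASCs. Of the family itself, E2f1, E2f2, E2f7, E2f8, and Rbl1 were upregulated DEGs in both comparisons. Rbl2, which encodes an Rb relative, and E2f6, which encodes a repressor, fell in both comparisons, by 0.76 and 0.33 in PASCs and by 0.79 and 0.18 in EASCs on the log2 scale. All 25 mitosis genes were upregulated DEGs in each comparison with SASCs, against 13.6% of all genes in EASCs and 12.0% in PASCs. Their medians were 2.60 in EASCs and 3.21 in PASCs. All 25 fell in EASCs against PASCs at any fold change, where 14.5% of all genes fell. The largest changes in PASCs were those of Nek2, Plk1, and Ccnb1, at 4.35, 4.06, and 4.02.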

How the data were processed

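Counts of 9 samples, 3 each of SASCs, PASCs, and EASCs, were grouped by the sample titles. The authors trimmed paired-end reads of 150 bases, aligned them with TopHat2, and deposited whole-number read counts per gene without normalization. The methods name the rat genome rn6 while the submitters' processing notes list rn5. The chromosome ends and contig names of the table are those of rn6. The counter and its use of strand are not given in the sources used here.

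The 35 genes and all lists were chosen with earlier results of these data known. edgeR 4.0.16 in R 4.3.3 was used with TMM factors (0.74 to 1.23), filterByExpr, and 1 quasi-likelihood fit of the 3 groups without a block, with Benjamini-Hochberg adjustment over 14770 genes. Errors of fold changes are standard errors, and the common biological coefficient of variation was 0.0685. The replication index used a prior count of 2. Total counts were 17591916 to 30299032, and limits at 3 counts cover counting error only. No duplicate libraries were found.

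Full values are given for the highest and lowest member of each role group in each comparison with SASCs and for members called in 1 comparison only or with opposite signs. Other lists are given with up to 3 genes with the largest change in PASCs, and genes added to these by name were chosen after their values were seen. Some genes of these lists are not reported here. Promoters are from RefSeq on GRCr8. Printed were those of members with a large or small mean change that hold a motif within the 250 bases.

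In counts simulated for EASCs against SASCs on 14770 genes, recovery meant an adjusted p under 0.05 with the right sign. The fold threshold of DEGs was not applied, so these numbers are not recovery rates of DEGs. Of 100 genes changed by a fold of 2, 86 were recovered, and of 100 changed by a fold of 4, 94. At any fold change 13 unchanged genes passed the test. With the index offset the numbers were 86, 93, and 6. Alternatives were DESeq2 1.42.0, other scalings and filters, other thresholds, other indices, a replicate block, 2 groups alone, a shorter promoter window, and leaving out each sample. Metabolite data were not analysed here.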

Additional observations from a re-analysis of the deposited data

How the results depend on the processing

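Of the values of single genes under the alternatives, 1577 kept their direction and side of the threshold, 23 lost the call, 6 gained it, and 23 changed sign. Without TMM, members called in EASCs against SASCs fell to 11 and members lower at any fold change in EASCs against PASCs to 9, and the sign changed for Fancf (-0.19), Brca2 (-0.08), Rbbp8 (-0.13), and Atr (-0.16) in EASCs against SASCs, Fancf (-0.19) and Atm (-0.23) in PASCs against SASCs, and Fancf (0), Fancg (-0.08), and Slx4 (-0.04) in EASCs against PASCs. Without TMM the calls of Fanca (0.94), Fancg (0.6), Brip1 (0.63), Rad51ap1 (0.69), Mus81 (0.73), and Eme1 (0.92) in EASCs and of Palb2 (0.76) and Rad51c (0.76) in PASCs were lost. At any fold change, members called numbered 28 in EASCs, 29 in PASCs, and 15 in EASCs against PASCs, and above a fold of 1.5 the last was 8. With at least 10 counts in every sample, the member median in EASCs was 0.83. With the mitosis index, members lower than the index numbered 32 in each comparison with SASCs and 0 in EASCs against PASCs, and those higher 0, 0, and 20. With the median over the replication list 10 members were higher in EASCs, and with Mcm2 to Mcm7 2 were higher in EASCs and 3 in PASCs. Shares of all genes against these indices are not given here. With DESeq2, 3 were lower than the index in EASCs against PASCs.

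Leaving out each sample gave 15 to 17 members called in EASCs, 17 to 19 in PASCs, and 0 in EASCs against PASCs. The member median in PASCs was 1.03 to 1.2, the highest without SASCs sample 3, and the members lower than the index in EASCs against PASCs numbered 3 to 5. Changes of sign gave ranges of -0.2 to 0.02 for Fance in EASCs, -0.13 to 0.03 in PASCs, and -0.17 to 0.04 in EASCs against PASCs, and in the last comparison of 0 to 0.14 for Fancf, -0.15 to 0.17 for Fancg, -0.49 to 0.08 for Rad51b, -0.08 to 0.07 for Rad51d, and -0.06 to 0.07 for Slx4. The cause of these changes was not tested.

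Samples with the same replicate number did not deviate together (correlations -0.0348 to 0.038), so the number does not pair them. With the replicate number as a block, 17 members were called in EASCs, 18 in PASCs, and 0 in EASCs against PASCs, and no call of a single member changed. Rad54b and Rad51b had low counts and the widest errors, and the part of depth in these errors was not tested.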

Other observations

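Of 22 genes of excision and mismatch repair, 6 rose and 6 fell in EASCs at any fold change, against 35.5% and 34.3% of all genes, and 9 and 6 in PASCs, against 34.6% of all genes in each direction. Of them, 1 was an upregulated DEG in each comparison with SASCs (Ercc2), against 13.6% and 12.0% of all genes. In PASCs 1 was downregulated (Ercc5), against 14.9% of all genes. Ercc5, a nuclease of nucleotide excision repair, was at 12.0 ± 0.774 CPM in SASCs, 5.52 ± 0.663 in PASCs, and 6.23 ± 0.493 in EASCs (SD, n = 3), with log2 fold changes of -1.10 in PASCs and -0.94 in EASCs. Ercc2, a helicase of the same pathway, was at 6.30 ± 0.604, 13.4 ± 1.18, and 13.6 ± 1.78 CPM, with 1.08 and 1.10. Xpc, which recognises damage in that pathway, was at 25.7 ± 0.239, 12.8 ± 0.864, and 14.5 ± 1.43 CPM, with -1 and -0.82, and was not a DEG. The medians of the list were 0.14 in PASCs and 0 in EASCs.

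Of 18 p53 targets tested, 2 were upregulated and 4 downregulated DEGs in EASCs, and 1 was upregulated and 3 downregulated in PASCs, where the shares of all genes were 13.6% and 14.2% in EASCs and 12.0% and 14.9% in PASCs. Gadd45a, a stress-induced inhibitor of proliferation, was at 209 ± 8.17 CPM in SASCs, 38.6 ± 2.78 in PASCs, and 23.4 ± 3.46 in EASCs, with log2 fold changes of -2.43 and -3.15. Btg2, an antiproliferative gene, was at 60.3 ± 0.453, 10.6 ± 2.20, and 17.1 ± 1.90 CPM, with -2.49 in PASCs and -1.82 in EASCs, and Tp53inp1 was at 91.0 ± 3.59, 21.8 ± 2.78, and 19.6 ± 1.21 CPM, with -2.06 and -2.21. The upregulated DEGs were Phlda3, an inhibitor of AKT signaling, at 76.9 ± 3.48, 262 ± 19.7, and 284 ± 7.04 CPM, with 1.77 in PASCs and 1.88 in EASCs, and, in EASCs, Sesn2, with 1.14. Cdkn1a, which encodes the cell cycle inhibitor p21, rose by 0.66 in PASCs and 0.80 in EASCs on the log2 scale. The medians of the list were -0.01 in PASCs and 0.05 in EASCs.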
